A study of Homo sapiens with 11 samples.

Results

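The genes described here are 10 components of transforming growth factor beta (TGF-beta) signalling: the ligand genes TGFB1, TGFB2 and INHBA, the receptor genes TGFBR1 and TGFBR2, SMAD2, SMAD3, SMAD4 and SMAD7, and the target gene TGFBI. They were chosen by symbol, with earlier results of these data known. All 10 were found among the 58735 genes counted in each of 11 poly(A) RNA-seq libraries. They came from a pair of human lines of pancreatic cancer. AsPC-1 is a line that is known to carry mutant SMAD4, and PANC-1 is a line whose SMAD4 is intact. The groups were AsPC-1 with small interfering RNA (siRNA) against MYEOV (n = 3), AsPC-1 control (n = 2), PANC-1 with MYEOV siRNA (n = 3) and PANC-1 control (n = 3). RNA of the siMYEOV groups was taken 48 hours after transfection. The labels call the controls wild type and untreated, while the protocol names a negative-control siRNA. The effect of transfection and that of MYEOV siRNA therefore cannot be told apart with certainty. The protocol also names 2 MYEOV siRNAs without saying which library received which, and the numbers in the titles may mark siRNAs or repeats. Whether each library is its own culture is not stated, and the p-values cover only differences among libraries, which may be technical. Each line is a single model, and the cells of a culture were not separated by type.

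TGF-beta ligands are secreted in a latent form and, once activated, bind the type II receptor TGFBR2, which recruits and phosphorylates the type I receptor TGFBR1. The type I receptor phosphorylates SMAD2 and SMAD3, which join SMAD4 and enter the nucleus to regulate target genes. SMAD7 is induced by the pathway and inhibits its receptor. In pancreatic carcinoma the pathway is known both to restrain growth and to promote invasion and mesenchymal features, and SMAD4 is often lost.

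Totals ran from 12113093 to 15066456 counts per library, with counts in 22050 to 24025 genes. Mitochondrial genes took 13.2 to 13.9% of counts in AsPC-1 and 6.21 to 6.82% in PANC-1. The targeted gene MYEOV was at 42.9, 50.7 and 48.1 CPM (depth-normalised counts) in AsPC-1 siMYEOV libraries, against 131 and 130 CPM in AsPC-1 control. It was at 37.6, 35.8 and 39.7 CPM in PANC-1 siMYEOV libraries, against 75.0, 68.5 and 64.3 CPM in PANC-1 control. MYEOV RNA was thus lower in every siRNA library, at 35.9% of control in AsPC-1 and 54.4% in PANC-1. Among 8 markers of pancreatic carcinoma epithelium, KRT7 averaged 1.56 CPM in AsPC-1 control and 1.46 CPM in PANC-1 control. EPCAM and CDH1 averaged 5.87 and 8.10 CPM in PANC-1 control, where KRT8 averaged 1231 CPM. All 8 markers had counts in every group. Their summed level was 18558 to 19059 CPM in AsPC-1 siMYEOV, 18164 to 18359 CPM in AsPC-1 control, 2087 to 2098 CPM in PANC-1 siMYEOV and 2422 to 2654 CPM in PANC-1 control.

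Sequences are shown for the 2 genes whose RNA was lower with MYEOV siRNA in both lines, TGFBR2 and SMAD3, and for SMAD2, whose RNA was not. The 7-base word CTCATGT was taken from earlier results on these data, where genes carrying it in the 3′ untranslated region (UTR) were called lower more often than others, so its presence here supports nothing independently. Among the 10 genes TGFBR2, SMAD3 and SMAD2 carry it on the transcript strand. The 3′ UTR sites below are written in the transcript's direction with 10 bases on either side, and capitals mark the word. TGFBR2 has 1 site at chr3:30693954-30693980 (plus strand, GRCh38), SMAD3 has 1 at chr15:67194443-67194469 (plus strand), and SMAD2 has 2 at chr18:47814430-47814456 and chr18:47822460-47822486 (minus strand).
TGFBR2: ttcagctgtaCTCATGTattaaaatag
SMAD3: agaaacttgcCTCATGTaaactggatt
SMAD2, site at 47814430: aggagtaaaaCTCATGTtcagttgtcc
SMAD2, site at 47822460: gttacttagtCTCATGTaacttttttt
The SMAD2 sites lie 27381 and 19351 bases into an annotated 3′ UTR of 32870 bases. The 7-base word was in the 3′ UTR of 14.1% of the genes tested in AsPC-1 and 14.2% of those tested in PANC-1. Of genes with the word, 35.3% were called lower with MYEOV siRNA in AsPC-1, against 14.9% of genes without it, and in PANC-1 18.6% with the word and 3.32% without it were called lower. The 6-base core TCATGT also occurs in INHBA, TGFBR1 and SMAD4, at 3 sites each, and in TGFBI at 1 site. TGFB1, TGFB2 and SMAD7 hold no TCATGT in their annotated 3′ UTRs.

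TGFBR2 and SMAD3 also each have 1 RefSeq promoter window (250 bases before to 50 after an annotated start, GRCh38.p14) that holds TGACTCA or its reverse complement TGAGTCA, the word bound by AP-1 factors. The windows are shown because these are the members that were lower in both lines, and capitals mark the word. The SMAD3 window at chr15:67125492-67125791 (plus strand) is 1 of its 5 windows, with the word starting 56 bases before the transcription start. The TGFBR2 window at chr3:30606351-30606650 (plus strand) is 1 of its 2, with the word starting 6 bases before the start.
SMAD3 promoter: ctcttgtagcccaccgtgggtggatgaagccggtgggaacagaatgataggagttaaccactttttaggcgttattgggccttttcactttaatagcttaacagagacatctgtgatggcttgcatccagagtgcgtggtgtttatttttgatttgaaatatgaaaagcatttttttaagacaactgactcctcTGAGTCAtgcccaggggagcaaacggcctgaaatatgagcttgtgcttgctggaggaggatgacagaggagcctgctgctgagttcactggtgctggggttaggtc
TGFBR2 promoter: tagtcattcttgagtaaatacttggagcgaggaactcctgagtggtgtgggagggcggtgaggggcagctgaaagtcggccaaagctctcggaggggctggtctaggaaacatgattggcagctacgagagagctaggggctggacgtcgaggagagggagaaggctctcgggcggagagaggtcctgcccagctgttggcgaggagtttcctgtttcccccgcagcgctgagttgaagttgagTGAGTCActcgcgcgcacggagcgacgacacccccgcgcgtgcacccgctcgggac
The word, searched on both strands, was in 4.95% of 35116 promoter windows. That share is per window, while the 10 genes have from 1 window (such as TGFB1) to 8 (TGFBR1), and more windows allow more matches. Whether the word has a part in the lower RNA was not tested. The palindromic SMAD word GTCTAGAC (0.202% of windows) and the cyclic AMP response word TGACGTCA (1.85%) were in no window of the 10 genes. The short SMAD-binding word CAGAC or its reverse complement GTCTG was in at least 1 window of INHBA, SMAD3, SMAD7, TGFB2 and TGFBR1, and in 45.3% of all windows. These are matches of letters and not measured binding.

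With MYEOV siRNA in AsPC-1, TGFB2 RNA rose 3.15-fold, TGFB1, TGFBR1, SMAD2 and TGFBI rose to between 137% and 149.9% of control, and TGFBR2 and SMAD3 fell to 73.2% and 70.9% of control. In PANC-1, TGFBR2 and SMAD3 fell to 77.1% and 68.3% of control, TGFB1 rose to 120.1% of control, and TGFB2 was at 98.7% of control without passing the test. Both lines thus had lower TGFBR2 and SMAD3 RNA, and the rise of TGFB2 was found in AsPC-1. Called here means a Benjamini-Hochberg adjusted p under 0.05 in edgeR's quasi-likelihood test across all genes. In AsPC-1, 7 of 9 tested members were called, 5 higher and 2 lower, against 32.9% of 14304 genes called in all, 16.6% higher and 16.3% lower. Their median log2 fold change was 0.45, beside a median of -0.00 over all genes tested. In PANC-1, 3 of 10 were called, 1 higher and 2 lower, against 9.08% of 14929 genes, 4.16% higher and 4.92% lower. Their median was 0.04, beside -0.00 over all genes. INHBA had 0 counts in AsPC-1 and was not tested there. As these are bulk libraries, a lower level may come from fewer cells that express a gene or from less RNA per cell, which cannot be told apart.

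**Figure D1:**
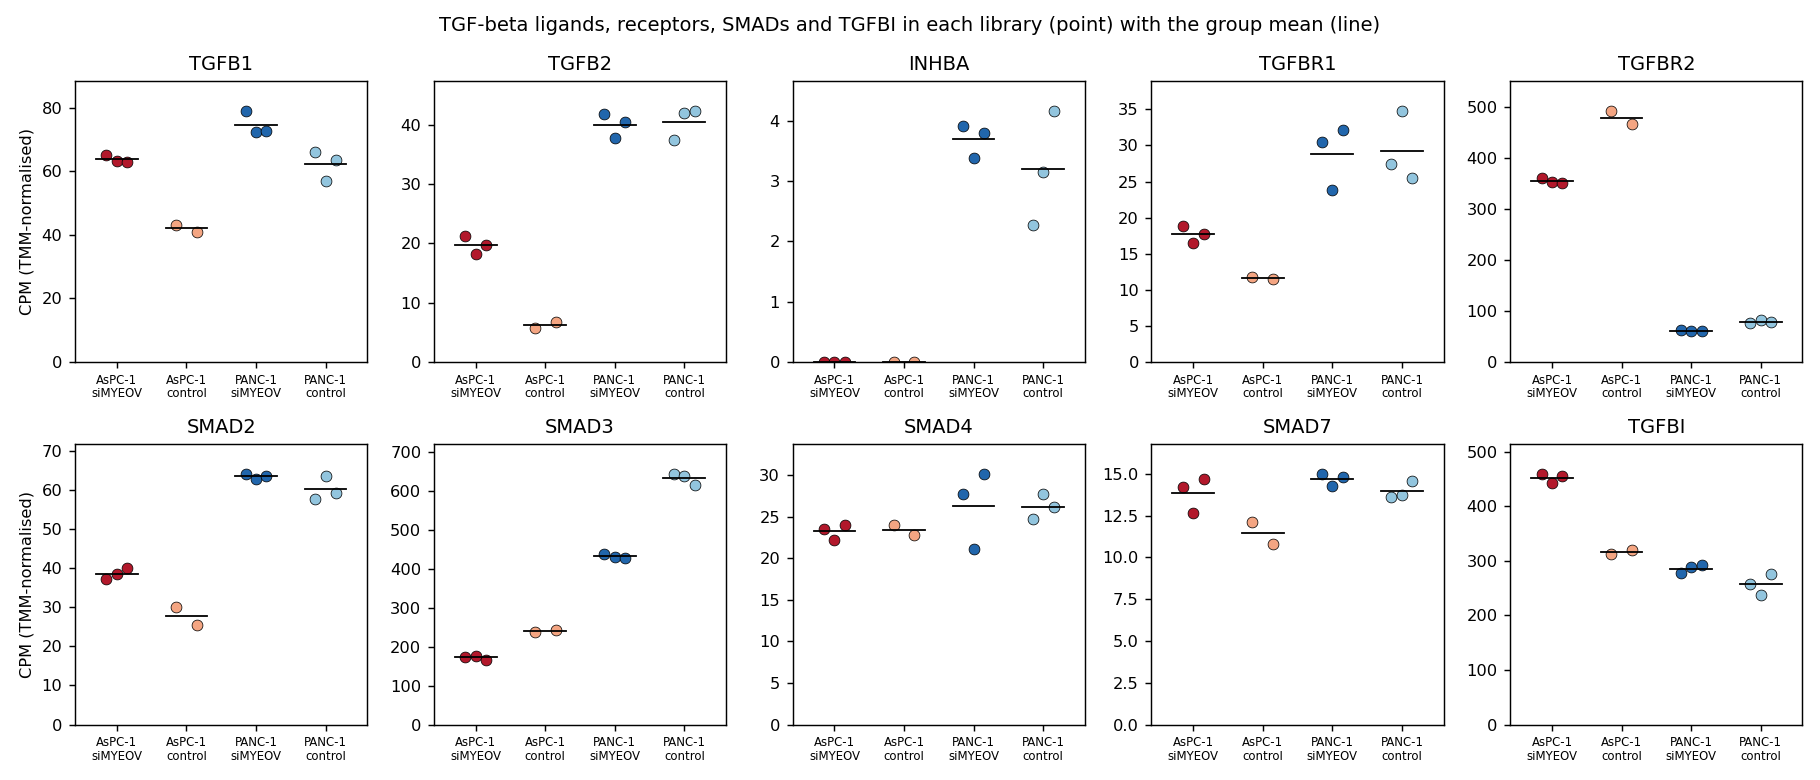
CPM of each of the 10 genes in every library (points, 1 per library) with the group mean (line), on a linear axis from 0. TGFB2 at 18.1 to 21.1 CPM in AsPC-1 siMYEOV lies above 5.68 and 6.72 CPM in AsPC-1 control, while TGFBR2 and SMAD3 are lower in the siRNA libraries of both lines.

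TGFB2 encodes a TGF-beta ligand that needs betaglycan for efficient receptor binding. Its level was 21.1, 18.1 and 19.7 CPM in AsPC-1 siMYEOV, against 5.68 and 6.72 CPM in AsPC-1 control. The groups did not overlap, and the log2 fold change was 1.65 (SE 0.13; edgeR quasi-likelihood test, adjusted p = 1.52e-10). In PANC-1 siMYEOV it was at 41.7, 37.7 and 40.4 CPM, against 37.4, 41.9 and 42.3 CPM in PANC-1 control. These overlapped, and the log2 fold change was -0.02, with a 95% interval from -0.16 to 0.12. AsPC-1 siMYEOV libraries, at up to 21.1 CPM, remained below the lowest PANC-1 library at 37.4 CPM. The difference in response between the lines, AsPC-1 minus PANC-1, was 1.69 log2 units (SE 0.15; edgeR quasi-likelihood test, adjusted p = 3.59e-07).

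TGFB1, the ligand gene expressed most widely across tissues, was at 64.9, 63.1 and 63.0 CPM in AsPC-1 siMYEOV, against 43.1 and 41.0 CPM in AsPC-1 control. It was at 78.9, 72.3 and 72.6 CPM in PANC-1 siMYEOV, against 66.1, 56.8 and 63.5 CPM in PANC-1 control. Neither line's groups overlapped. Its log2 fold change was 0.58 (SE 0.06; edgeR quasi-likelihood test, adjusted p = 2.15e-08) in AsPC-1 and 0.26 (SE 0.07; adjusted p = 0.0288 by the same test) in PANC-1. The PANC-1 call was lost without siMYEOV library 1 (edgeR, adjusted p = 0.172), siMYEOV library 3 (0.0575) or control library 3 (0.0662). Exons of TGFB1 overlap those of HNRNPUL1 on the opposite strand, and whether counting used strand is not known from the labels. Reads from the overlap cannot be told apart. HNRNPUL1, an RNA-binding protein gene, had a log2 fold change of 0.14 in AsPC-1 and 0.04 in PANC-1. INHBA, the subunit gene of activin A, had 0 counts in all 5 AsPC-1 libraries. It was at 3.92, 3.38 and 3.81 CPM in PANC-1 siMYEOV and 2.28, 3.15 and 4.16 CPM in PANC-1 control, which overlapped (log2 fold change 0.21, edgeR quasi-likelihood test, adjusted p = 0.609).

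The 2 receptors moved in opposite directions in AsPC-1. TGFBR2, the type II receptor that binds the ligand first, was at 361, 353 and 352 CPM in AsPC-1 siMYEOV, against 493 and 467 CPM in AsPC-1 control. It was at 61.7, 60.1 and 59.9 CPM in PANC-1 siMYEOV, against 76.0, 82.1 and 77.8 CPM in PANC-1 control. The groups did not overlap in either line, with log2 fold changes of -0.45 (SE 0.03; edgeR quasi-likelihood test, adjusted p = 9.70e-11) in AsPC-1 and -0.38 (SE 0.06; adjusted p = 0.00119) in PANC-1. TGFBR1, the type I receptor that phosphorylates SMAD2 and SMAD3, was at 18.9, 16.5 and 17.7 CPM in AsPC-1 siMYEOV, against 11.8 and 11.5 CPM in AsPC-1 control. It was at 30.4, 23.9 and 32.2 CPM in PANC-1 siMYEOV, against 27.5, 34.8 and 25.5 CPM in PANC-1 control. The AsPC-1 groups were apart and the PANC-1 groups overlapped. The log2 fold change of TGFBR1 was 0.58 (SE 0.11; edgeR quasi-likelihood test, adjusted p = 0.000121) in AsPC-1 and -0.02 (SE 0.12; adjusted p = 0.961) in PANC-1.

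The SMAD genes did not move together. SMAD3, a receptor-activated SMAD that binds DNA, was at 173, 177 and 167 CPM in AsPC-1 siMYEOV, against 238 and 244 CPM in AsPC-1 control. It was at 438, 431 and 428 CPM in PANC-1 siMYEOV, against 644, 639 and 616 CPM in PANC-1 control. Neither pair overlapped, with log2 fold changes of -0.50 (SE 0.04; edgeR quasi-likelihood test, adjusted p = 2.63e-10) in AsPC-1 and -0.55 (SE 0.04; adjusted p = 2.15e-06) in PANC-1. SMAD2, a receptor-activated SMAD closely related to SMAD3, was at 37.2, 38.4 and 40.1 CPM in AsPC-1 siMYEOV, against 30.0 and 25.5 CPM in AsPC-1 control. It was at 64.1, 62.9 and 63.5 CPM in PANC-1 siMYEOV, against 57.7, 63.5 and 59.4 CPM in PANC-1 control, where the groups overlapped. SMAD2 changed by 0.45 log2 units (SE 0.08; edgeR quasi-likelihood test, adjusted p = 5.57e-05) in AsPC-1 and 0.08 (adjusted p = 0.487) in PANC-1. In AsPC-1 SMAD2 thus rose where SMAD3 fell. Both have the word CTCATGT shown above in an annotated 3′ UTR. Whether the RNA counted here holds those sites, and whether the word has a part in either change, was not tested.

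SMAD4, the shared partner of the receptor-activated SMADs, was at 23.5, 22.3 and 24.0 CPM in AsPC-1 siMYEOV, against 24.0 and 22.8 CPM in AsPC-1 control. It was at 27.7, 21.1 and 30.1 CPM in PANC-1 siMYEOV, against 24.7, 27.7 and 26.1 CPM in PANC-1 control. The groups overlapped in both lines. The log2 fold change was -0.02 in AsPC-1, with a 95% interval from -0.19 to 0.14, and 0.01 in PANC-1, from -0.21 to 0.23. SMAD7, the inhibitory SMAD, was at 14.2, 12.6 and 14.7 CPM in AsPC-1 siMYEOV, against 12.1 and 10.8 CPM in AsPC-1 control. The AsPC-1 libraries of SMAD7 did not overlap but missed the threshold (log2 fold change 0.25, SE 0.12; edgeR quasi-likelihood test, adjusted p = 0.0972). It was at 15.01, 14.3 and 14.8 CPM in PANC-1 siMYEOV, against 13.6, 13.7 and 14.6 CPM in PANC-1 control, with a log2 fold change of 0.08 (adjusted p = 0.680, edgeR).

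TGFBI encodes a secreted matrix protein that TGF-beta is known to induce. It was at 459, 442 and 456 CPM in AsPC-1 siMYEOV, against 313 and 319 CPM in AsPC-1 control. It was at 277, 288 and 292 CPM in PANC-1 siMYEOV, against 258, 237 and 276 CPM in PANC-1 control. TGFBI was higher in every siRNA library than in every control library of its line, and in PANC-1 the gap was small. The log2 fold change was 0.50 (SE 0.03; edgeR quasi-likelihood test, adjusted p = 2.08e-11) in AsPC-1 and 0.15 (SE 0.06; adjusted p = 0.110) in PANC-1. With 1 fit over all groups the PANC-1 value passed (edgeR, adjusted p = 0.0368).

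**Figure D2:**
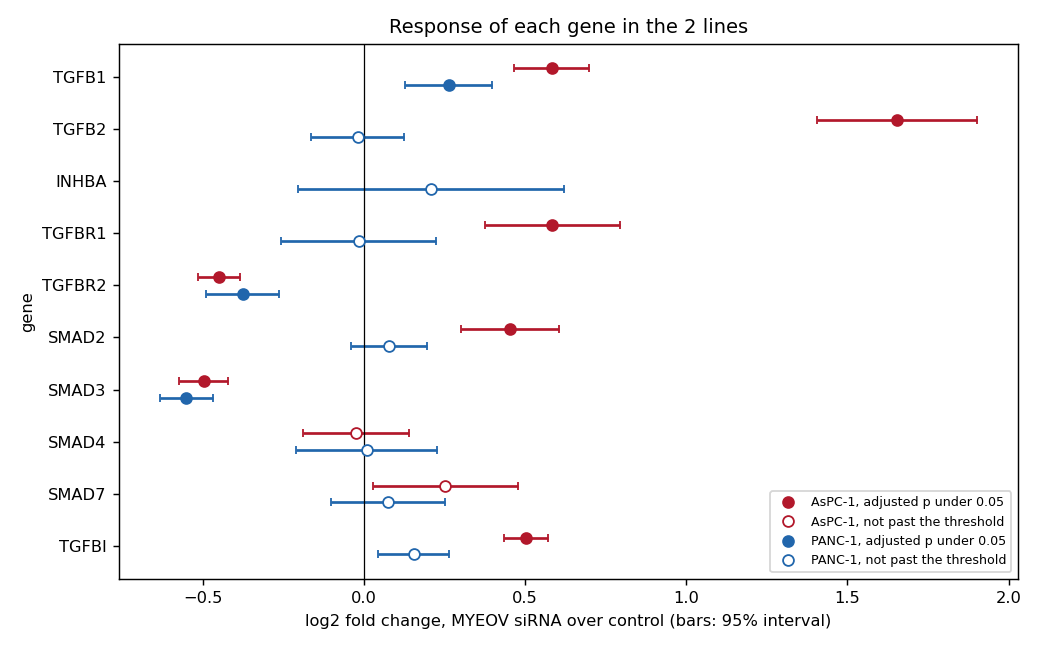
Log2 fold change of MYEOV siRNA over control for each gene in AsPC-1 (red) and PANC-1 (blue); bars are 95% intervals, and filled points passed the threshold. TGFBR2 and SMAD3 lie below 0 in both lines, while TGFB2 stands at 1.65 in AsPC-1 and at -0.02 in PANC-1; INHBA had no counts in AsPC-1.

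Members called in the same direction in both lines were TGFB1 (higher) and TGFBR2 and SMAD3 (lower), 3 of the 9 members tested in both, against 6.76% of 12893 genes. A test of the difference in response called 3 members, each with a more positive log2 response in AsPC-1, of the 9 with counts in both lines. INHBA, with 0 counts in AsPC-1, passed the filter through PANC-1 alone and has no response in AsPC-1 to compare. Over all genes 4.36% passed, 2.28% more positive and 2.07% more negative. The 3 members were TGFB2, SMAD2 at 0.39 (SE 0.10; edgeR quasi-likelihood test, adjusted p = 0.0301) and TGFBI at 0.36 (SE 0.07; adjusted p = 0.00417). SMAD2 lost its call without AsPC-1 control library 2 (edgeR, adjusted p = 0.250), AsPC-1 siMYEOV library 2 (0.0634) or 3 (0.0836), or PANC-1 siMYEOV library 1 (0.0615) or 2 (0.0775). TGFB1, at 0.33 (edgeR, adjusted p = 0.0501), and TGFBR1, at 0.61 (adjusted p = 0.0681), missed it. TGFB1 passed with no low-count filter (edgeR, adjusted p = 0.0310), with a filter of 5 CPM (0.0464) and without PANC-1 control library 2 (0.00819) or PANC-1 siMYEOV library 1 (0.0483). TGFBR1 passed with no filter (edgeR, adjusted p = 0.00233), in DESeq2 (0.0426) and without PANC-1 control library 3 (0.0355) or PANC-1 siMYEOV library 3 (0.0422). SMAD3 differed by 0.07 log2 units (95% interval -0.05 to 0.18) and TGFBR2 by -0.06 (-0.19 to 0.07). MYEOV itself differed by -0.59 log2 units, and the part of the unequal knockdown in these differences was not tested.

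Levels of the same genes were also compared between the control libraries of the lines. TGFBR2 was higher in AsPC-1 control, at 493 and 467 CPM, than in PANC-1 control, at 76.0, 82.1 and 77.8 CPM (log2 fold change 2.63, SE 0.06; edgeR quasi-likelihood test, adjusted p = 5.33e-15). TGFB2 was lower, by a log2 ratio of -2.69 (SE 0.12; edgeR, adjusted p = 2.24e-11), and so were SMAD3 at -1.37, TGFBR1 at -1.30, SMAD2 at -1.09 and TGFB1 at -0.54. TGFBI was higher by 0.32. INHBA, at 0 counts in AsPC-1 control, was at least 26.1-fold lower against a floor of 3 counts over the group (0.122 CPM), and it passed the low-count filter through PANC-1 alone. SMAD4 at -0.14 (edgeR, adjusted p = 0.207) and SMAD7 at -0.26 (adjusted p = 0.0621) did not pass. In all, 8 of 10 were called, 2 higher and 6 lower, against 76.4% of 16182 genes, 36.1% higher and 40.3% lower. That share is close to the background and is no result about these genes. The lines were grown in different media (an RPMI medium for AsPC-1, DMEM for PANC-1), so line and medium cannot be told apart.

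Levels between genes were compared per exon length, as TPM (counts divided by exon length and scaled to the same total in every library). In AsPC-1 TGFBR2 led per exon length, at 190.9 ± 2.38 TPM in siMYEOV (SD, n = 3) and 265.0 ± 2.60 TPM in control (n = 2). TGFBI followed at 146 ± 2.21 TPM in siMYEOV and 105 ± 4.39 TPM in control. With other lengths TGFBI was above TGFBR2 in AsPC-1 siMYEOV. The values were 199 against 158 TPM per longest transcript and 230 against 209 TPM per coding length. In AsPC-1 control TGFBR2 led by each length. TGFB1 and SMAD3 overlapped per exon length in AsPC-1 siMYEOV, at 49.7 ± 0.74 TPM for TGFB1 and 47.8 ± 1.72 TPM for SMAD3. In AsPC-1 control they were apart, at 33.7 ± 0.27 TPM for TGFB1 and 68.7 ± 3.15 TPM for SMAD3. With other lengths SMAD3 was above TGFB1 in AsPC-1 siMYEOV too. The values were 56.6 against 47.2 TPM per longest transcript and 141 against 56.8 TPM per coding length. Per exon length TGFB2 was rank 5 in AsPC-1 siMYEOV at 9.64 ± 0.69 TPM and rank 8 in control at 3.14 ± 0.46 TPM. Per coding length it fell below SMAD2 in both, at 15.5 against 28.7 TPM in siMYEOV and 5.02 against 21.2 TPM in control. SMAD7 and TGFBR1 overlapped in AsPC-1 siMYEOV. In PANC-1 SMAD3 led, at 179.8 ± 3.13 TPM in siMYEOV and 261 ± 6.91 TPM in control (n = 3 each). TGFBI, TGFB1, TGFBR2, TGFB2, TGFBR1, SMAD7, SMAD4, SMAD2 and INHBA followed per exon length in both PANC-1 groups. Only SMAD4 and SMAD2 in PANC-1 siMYEOV overlapped as neighbours. Per coding length SMAD4 was above SMAD7, at 20.0 against 14.5 TPM in PANC-1 siMYEOV and 19.8 against 13.7 TPM in PANC-1 control. The low rank of SMAD2 rests on its exon length of 36366 bases, and per coding length its TPM was 28.7 in AsPC-1 siMYEOV, 21.2 in AsPC-1 control, 56.9 in PANC-1 siMYEOV and 53.9 in PANC-1 control.

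**Figure D3:**
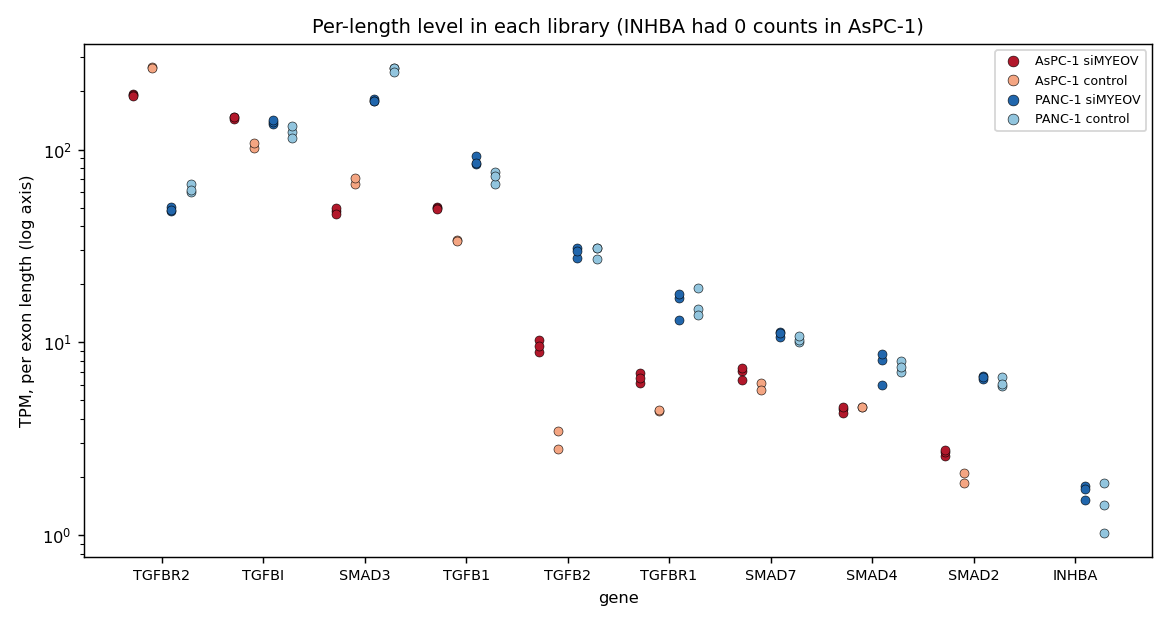
TPM per exon length of each gene in every library, on a log axis; points are libraries and colours are groups. By this length TGFBR2 leads in AsPC-1 and SMAD3 in PANC-1, while TGFBI leads in AsPC-1 siMYEOV per longest transcript or coding length. The TGFB2 points of AsPC-1 siMYEOV (9.64 TPM on average) lie above those of AsPC-1 control (3.14 TPM).

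A wider set of 119 pathway genes in 8 lists was counted beside the members, with the shares of all genes given above as background. In AsPC-1, 30 of 87 tested genes rose and 16 fell with MYEOV siRNA, against 16.6% and 16.3% of all genes. In PANC-1, 8 of 96 rose and 4 fell, against 4.16% and 4.92%. The share that fell was close to the background in each line and is no result about these genes. Over all 12893 genes tested in both lines, 6.76% were called in the same direction. The lists held 6 other ligands, 11 latent complex genes, 8 receptors, 2 antagonists, 17 regulators, 10 SMAD-independent genes, 20 TGF-beta targets and 5 BMP targets tested in both lines. In no list was more than 1 gene higher in both lines, or more than 1 lower. The names that follow are of single genes and are no result about the pathway. Pathway genes higher in both lines included LTBP2, a latent TGF-beta binding protein gene, TGFBR3, the gene of the co-receptor betaglycan, and SMURF1, a ubiquitin ligase that targets SMADs and receptors. Lower in both lines were NEDD4L, a ubiquitin ligase that targets activated SMADs, CDKN1A, the gene of the cell-cycle inhibitor p21, and ID1, a BMP target. TGFBR3 averaged 29.4 ± 2.08 CPM in AsPC-1 siMYEOV and 18.8 ± 1.01 CPM in AsPC-1 control (SD, n = 3 and n = 2). In PANC-1 it averaged 22.3 ± 1.64 CPM in siMYEOV and 16.8 ± 0.58 CPM in control (n = 3 each), a call that was lost without siMYEOV library 3 (edgeR, adjusted p = 0.0514). The word CTCATGT was in the 3′ UTR of 22 of the listed genes. Of the 18 tested in AsPC-1, 6 were called higher and 5 lower. Of the 17 tested in PANC-1, 1 was called higher (SMURF1) and 2 lower (NEDD4L and CDKN1A). Among all tested genes with the word, 13.6% were called higher and 35.3% lower in AsPC-1. In PANC-1 these shares were 3.55% and 18.6%.

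Of the latent complex and activation list, 6 of 12 tested genes rose in AsPC-1 and 4 fell (median log2 fold change 0.04). In PANC-1, 3 of 12 rose. The shares called over all genes were 32.9% in AsPC-1 and 9.08% in PANC-1. ITGB6, a subunit of an integrin that activates latent TGF-beta, rose by 0.59 log2 units in AsPC-1 (SE 0.07; edgeR quasi-likelihood test, adjusted p = 9.10e-07), to 43.9 CPM in siMYEOV against 29.02 CPM in control. LTBP4 and LTBP3, which encode latent TGF-beta binding proteins, changed by -0.46 and 0.44 in AsPC-1. LTBP1, another of that family, changed by -0.38 in AsPC-1 and 0.29 in PANC-1. LTBP1 lost its PANC-1 call without siMYEOV library 1 (edgeR, adjusted p = 0.0955) or 3 (0.0513). LTBP2 had a log2 fold change of 0.61 in AsPC-1 and 0.36 in PANC-1. FURIN, a protease that cleaves TGF-beta precursors, rose by 0.21 in PANC-1 but lost its call without any 1 of 5 libraries (edgeR, adjusted p from 0.0682 to 0.152).

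Among 8 other receptors and co-receptors tested in AsPC-1, 3 rose and 1 fell (median 0.22). For this and the next 2 lists, the shares called over all genes were 32.9% in AsPC-1 and 9.08% in PANC-1. ACVR1B, the type I activin receptor, rose by 0.70 log2 units (SE 0.07; edgeR quasi-likelihood test, adjusted p = 2.24e-08), and ACVR1, a type I receptor for BMPs, rose by 0.36. In PANC-1 only TGFBR3 of 8 was called. Among other ligands, 3 of 8 rose and 1 fell in AsPC-1 (median 0.31), among them BMP4 (0.46), BMP7 (0.33) and BMP1 (0.29), a protease despite its name. In PANC-1, 1 of 9 rose, GDF15, a stress-induced cytokine gene (0.37). Of secreted antagonists, FSTL3, an activin-binding protein gene, was the 1 called of 2 tested in AsPC-1 (-0.20). It lost that call without either control library (edgeR, adjusted p = 0.0508 and 0.0593). In PANC-1 edgeR and DESeq2 each called 0 of 4, and 1 had an unadjusted p under 0.05 in edgeR.

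Of the other SMADs, cofactors and regulators, 9 of 19 tested rose in AsPC-1 and 1 fell (median 0.14). In PANC-1, 1 of 18 rose and 1 fell, close to the 9.08% of all genes called there. TGIF2, a repressor of SMAD-driven transcription, averaged 27.3 ± 0.86 CPM in AsPC-1 siMYEOV and 14.4 ± 0.16 CPM in control (SD, n = 3 and n = 2), higher by 0.91 log2 units (SE 0.09; edgeR quasi-likelihood test, adjusted p = 1.50e-08). SMAD6, an inhibitory SMAD of the BMP arm, rose by 0.38. ZFYVE9, which presents SMADs to the receptor, rose by 0.53, or by 0.79 without control library 1, and its value was 0.32 without control library 2, where the call was lost (edgeR, adjusted p = 0.0952). Of the SMAD-independent arm, 2 of 10 rose and 1 fell in AsPC-1. That share is close to the 32.9% of all genes called there and is no result about this list. In PANC-1 edgeR and DESeq2 each called 0 of 10, and 2 had an unadjusted p under 0.05 in edgeR. TAB3 (0.33), MAP3K7 (-0.18) and ROCK1 (0.17) each lost the call without 1 AsPC-1 control library.

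Of the TGF-beta target genes, 5 of 23 rose and 6 fell in AsPC-1 (median -0.01), where DESeq2 called 6 in all against 11 by edgeR. In PANC-1 2 of 27 rose and 1 fell (median 0.04). That PANC-1 share is close to the 9.08% of all genes called there, while 32.9% of all genes were called in AsPC-1. CDKN1A fell by 1.01 log2 units in AsPC-1 and by 0.47 in PANC-1, and JUNB, an AP-1 subunit gene, fell by 0.45 in AsPC-1. COL1A1, a collagen gene, rose by 0.33 in PANC-1 but lost its call without any 1 of 4 libraries. The BMP target ID1 fell by 0.36 in AsPC-1 and by 0.31 in PANC-1, and MSX2, a homeobox gene, rose by 0.48 in AsPC-1. ID2, a BMP target, rose by 0.82 in AsPC-1 and fell by 0.57 in PANC-1, where the call was lost without any 1 of 5 libraries (edgeR, adjusted p from 0.0707 to 0.134) and the value was -0.37 without control library 2.

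**Figure D4:**
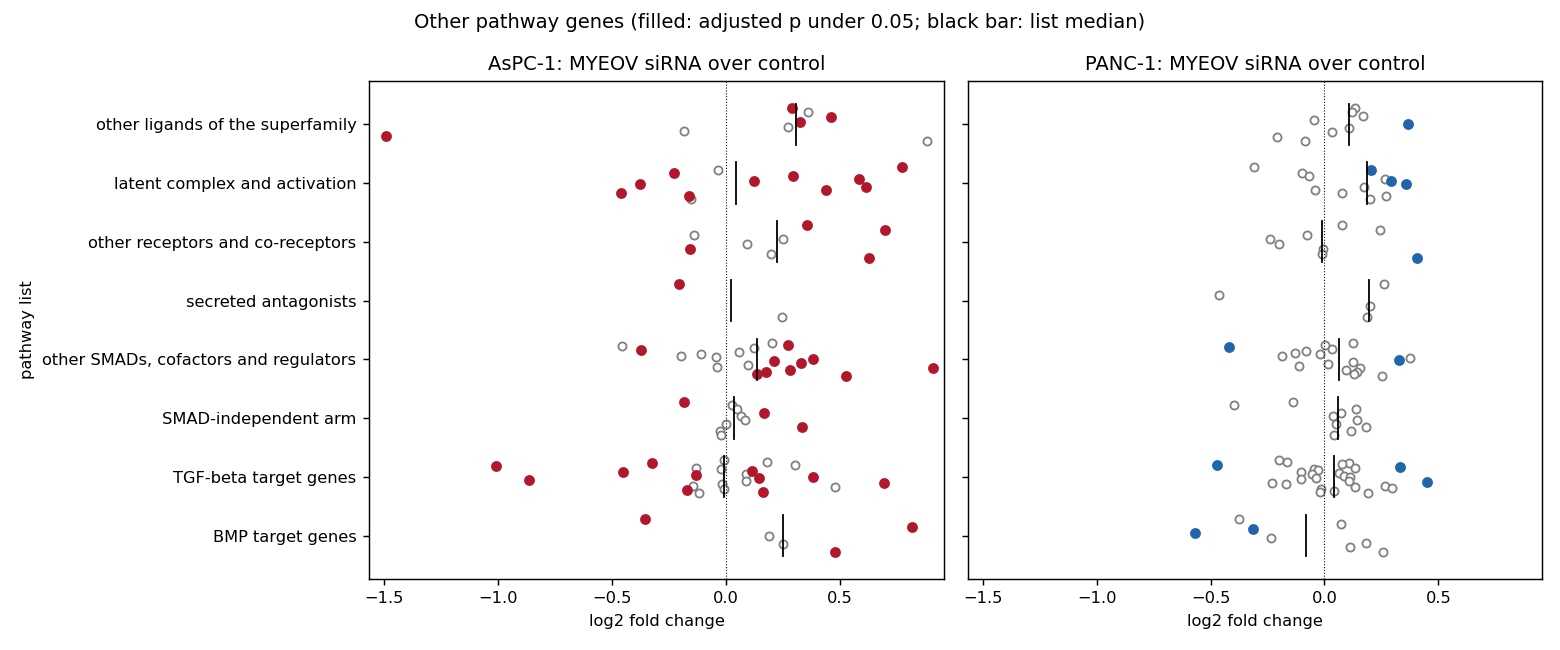
Log2 fold change of MYEOV siRNA over control for genes of the 8 pathway lists in AsPC-1 (left) and PANC-1 (right); filled points passed the threshold and black bars are list medians. Called genes lie on both sides of 0 in AsPC-1, where 30 rose and 16 fell, and are fewer in PANC-1, where 8 rose and 4 fell. PANC-1 libraries had the larger spread, so these counts do not compare the size of response.

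Between control lines, 38 of 103 tested pathway genes were higher in AsPC-1 control than in PANC-1 control and 52 were lower. Over all 16182 genes 36.1% were higher and 40.3% lower, so the share higher is close to the background. Some of the lower genes, such as MMP2 and CDH2, were not tested within AsPC-1 and passed the low-count filter through PANC-1. SMURF1 averaged 807 CPM in AsPC-1 control and 77.6 CPM in PANC-1 control. ITGB8 averaged 166 CPM in AsPC-1 control and 13.3 CPM in PANC-1 control, and SMAD6 averaged 158 CPM and 31.9 CPM in these groups. LTBP2 averaged 6.36 CPM in AsPC-1 control and 128 CPM in PANC-1 control. The fibroblast and stellate cell marker list summed to 108 to 111 CPM in AsPC-1 siMYEOV and 299 to 312 CPM in AsPC-1 control, and to 57.2 to 60.0 CPM in PANC-1 siMYEOV and 42.2 to 50.3 CPM in PANC-1 control. Of its 11 genes 9 had counts in AsPC-1 siMYEOV, 8 in AsPC-1 control, 7 in PANC-1 siMYEOV and 9 in PANC-1 control. The defining marker PDGFRA was at 0 in both AsPC-1 groups, DCN and FAP were at 0 in both PANC-1 groups, LUM was the gene called lower in AsPC-1, and COL1A1 was the gene called higher in PANC-1. LUM alone averaged 105 CPM in AsPC-1 siMYEOV and 301 CPM in AsPC-1 control, nearly all of the list's sum there. ACTA2 averaged 2.01 and 2.03 CPM in these groups. COL1A1 averaged 41.9 CPM in PANC-1 siMYEOV and 33.2 CPM in PANC-1 control, most of the sum there. The list's part in the results was not tested. Leukocyte markers summed to 30.5 to 32.7 CPM in AsPC-1 siMYEOV and 31.4 to 32.9 CPM in AsPC-1 control, with PTPRC, CD3E and MS4A1 at 0, and to at most 1.58 CPM in PANC-1 siMYEOV and 1.69 CPM in PANC-1 control. LYZ alone averaged 28.7 CPM in AsPC-1 siMYEOV and 29.4 CPM in AsPC-1 control, nearly all of the leukocyte sum there. Endothelial markers summed to under 1 CPM in every library.

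The genes whose pattern was most like each member's were found by Pearson's r over 11 libraries, of log2 CPM minus the mean of the same line's controls, among the 9691 genes whose log2 CPM averaged 3 or more. The points share the 2 control means and the scaling, so r is a description. For SMAD3 they were SORL1 (0.997), TANC2 (0.994) and MAK16 (0.991). For TGFBR2 they were KPNA6 (0.995), PAK2 (0.992) and TGFBRAP1 (0.992). For TGFB2 they were DCBLD1 (0.992), LONRF2 (0.986) and ABCC1 (0.982). For TGFB1 they were GMDS (0.986), BIN1 (0.985) and KCNAB2 (0.984), and for TGFBI SEMA4B (0.990), MROH6 (0.987) and SYS1 (0.986).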

How the data were processed

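Poly(A) RNA of 11 libraries was sequenced in paired 150-base reads. The deposited tables hold whole-number read counts per gene, made by the authors with HISAT2 and HTSeq and build hg19, per the submitters' processing notes; versions and the strand setting are not given in the sources used here. All 58735 gene IDs matched GENCODE 29, from which symbols, GRCh38 positions and 3′ UTRs were taken; promoter windows came from RefSeq. No near-duplicate libraries were found. Counts were fitted across all genes in R 4.3.3 by the 2-sided quasi-likelihood test of edgeR 4.0.16 (genes kept by filterByExpr, TMM factors), separately for each line, for the control lines, and in 1 fit for the difference. The fit for the difference used 1 shared spread for both lines (coefficient of variation 4.99%). The SE is the log2 fold change over the square root of F. Printed CPM uses TMM factors over all libraries. The script was tested on simulated data. Alternatives were other scalings and filters, DESeq2 1.42.0, a replicate block, 1 fit over all groups, and leaving out each library. Named list genes were up to 3 called genes per list with the largest change at a mean log2 CPM of at least 3. The members and lists were chosen with earlier results of these data known. Counting error limits genes at a few CPM most. A gene that the naming rule took is not reported here.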

Additional observations from a re-analysis of the deposited data

Results flagged for a closer look

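These values were picked out because the response to MYEOV siRNA differed between the 2 lines in the test of the difference (edgeR's quasi-likelihood test, adjusted p under 0.05). Each value is the log2 response in AsPC-1 minus that in PANC-1. Among the members they were 1.69 for TGFB2, 0.39 for SMAD2 and 0.36 for TGFBI. The targeted gene MYEOV had -0.59. Among the pathway lists they were -0.65 for LTBP1, 0.38 for ITGB5, an integrin subunit gene, 0.47 for ACVR1B, -0.39 for FSTL3, 0.77 for TGIF2, 0.58 for SMAD6, -0.52 for CDKN1A and 1.40 for ID2. ACVR1B lost its call without either AsPC-1 control library (edgeR, adjusted p = 0.0595 and 0.0920). FSTL3 lost it without any 1 of 7 libraries (edgeR, adjusted p from 0.0660 to 0.165), and CDKN1A without any 1 of 7 (0.0590 to 0.413), being -0.31 without AsPC-1 control library 1.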

How the results depend on the processing

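The 7 members called in AsPC-1 kept their direction and their call under all 12 alternatives. TGFBR2 and SMAD3 did so in PANC-1 under all 13, and TGFB2 and TGFBI did so in the difference under all 17 (TGFBI with an edgeR adjusted p of up to 0.0499). With no low-count filter, 5 members were called in the difference in place of 3, the others being TGFB1 and TGFBR1. Values near 0 changed sign when 1 library was left out: these ranged from -0.049 to 0.0072 for SMAD4 in AsPC-1, and in PANC-1 from -0.075 to 0.022 for TGFB2, -0.106 to 0.124 for TGFBR1 and -0.095 to 0.145 for SMAD4; for SMAD4 in the difference they ranged from -0.186 to 0.081. Leaving out 1 library gave 2 to 3 called members in PANC-1, 2 to 4 in the difference and 8 to 9 between controls. Libraries with the same number did not deviate together (correlations from -0.095 to -0.016). Deviations from the mean of 2 or 3 libraries sum to 0, which constrains these correlations. They cannot decide whether the numbers pair samples. With the replicate block 7 members were called in AsPC-1, 2 in PANC-1, 2 in the difference and 8 between controls. TGFB1 lost its PANC-1 call (edgeR, adjusted p = 0.0566) and SMAD2 its call in the difference (0.183). Among named list genes LTBP1, FURIN, COL1A1 and ID2 lost the call in PANC-1, and ACVR1B, FSTL3 and CDKN1A in the difference. Calls over all genes were 628 in PANC-1 and 241 in the difference, against 1356 and 727 without the block. Over all genes, PANC-1 calls numbered 538, 876 and 863 without siMYEOV library 1, 2 or 3, and difference calls numbered 305 and 315 without AsPC-1 control library 1 or 2, and 475 without PANC-1 siMYEOV library 1. Between controls, SMAD4 and SMAD7 were also called with upper-quartile scaling, which moved the median of all genes to -0.14, and SMAD7 also with 1 fit over all groups (edgeR, adjusted p = 0.0229) and without PANC-1 control library 2 (0.0469). The causes were not tested.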
